A study of Homo sapiens with 20 samples.

Results

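CCN1, CCN2, AMOTL2, ANKRD1, LATS2, AJUBA, AXL, VCL and TPM1 are 9 genes widely used as readouts of the transcriptional coactivator YAP or of serum response factor (SRF). They were picked by gene symbol from the array annotation, with CCN1 and CCN2 also sought under their older symbols CYR61 and CTGF. They account for 9 of 19775 named genes and for 23 of 54675 probe sets. All 9 genes and 21 of the 23 probe sets lay above the filter on low signals. The cells were U2OS, an established human osteosarcoma line, and RNA of each culture was read on 3' expression arrays, 20 in all. Cells had spent 3 hr below 0.1% oxygen (hypoxia), 3 hr with tunicamycin at 2.5 ug/ml, which blocks N-glycosylation of proteins in the endoplasmic reticulum, or 3 hr with emetine at 100 ug/ml, which stops the ribosome, or they carried a hairpin against UPF1 (labelled shRent1), the helicase of nonsense-mediated mRNA decay. Control cells had none of these. All 5 groups, control included, then received DRB at 100 ug/ml, an inhibitor of transcription elongation, and gave RNA at its addition (0 hr) and after 1.5 hr, 3 hr and 4.5 hr. A condition thus has 4 arrays, 1 for each time and none repeated, and the same control arrays enter every comparison. No control hairpin is named for the UPF1-depleted cells, and it is not stated whether an exposure went on during DRB.

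YAP and its relative TAZ (gene WWTR1) carry no DNA-binding domain of their own and act through TEAD transcription factors. The kinases LATS1 and LATS2 phosphorylate YAP and hold it in the cytoplasm, which forms the core of the Hippo pathway. SRF binds DNA itself and is driven by the MRTF coactivators, which are released when actin monomers are built into filaments, so both systems respond to cell shape and tension. Several of their targets feed back on the pathway, such as LATS2, AMOTL2 and AJUBA, and others build the structures that bear tension, such as VCL and TPM1.

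The promoters of the 3 genes whose level was higher in UPF1-depleted cells than in control are shown because each holds the letters GGAATG, the core bound by TEAD factors, here in capitals. Each line gives the 250 bases before the gene start from RefSeq (build GRCh38.p14), 5′ to 3′ on the strand of the gene. CCN2 lies at chr6:131951373-131951622 on the minus strand, ANKRD1 at chr10:90921088-90921337 on the minus strand and VCL at chr10:73997866-73998115 on the plus strand.
CCN2: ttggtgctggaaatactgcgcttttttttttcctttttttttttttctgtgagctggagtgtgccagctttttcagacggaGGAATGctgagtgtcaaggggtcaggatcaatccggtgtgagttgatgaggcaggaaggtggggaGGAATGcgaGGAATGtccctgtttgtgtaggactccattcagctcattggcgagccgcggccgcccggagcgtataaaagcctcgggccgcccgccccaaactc
ANKRD1: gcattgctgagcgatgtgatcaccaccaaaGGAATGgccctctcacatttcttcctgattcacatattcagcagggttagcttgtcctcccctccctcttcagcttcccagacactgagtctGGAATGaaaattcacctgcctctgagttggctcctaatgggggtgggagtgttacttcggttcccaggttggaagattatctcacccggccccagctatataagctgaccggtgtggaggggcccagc
VCL: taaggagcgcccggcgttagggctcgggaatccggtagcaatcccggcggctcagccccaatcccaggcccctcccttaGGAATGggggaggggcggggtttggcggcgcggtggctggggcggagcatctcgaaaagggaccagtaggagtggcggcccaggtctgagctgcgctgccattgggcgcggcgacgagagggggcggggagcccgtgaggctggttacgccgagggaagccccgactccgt
GGAATG was searched on both strands, and CCN2 held it 3 times, first bases at -169, -104 and -95 from the start. Only 0.08258% of 35116 such promoter windows held it 3 or more times. ANKRD1 held it at -220 and -128 and VCL at -171. Among the other members, the second window of AMOTL2 held it at -69 and that of AXL at -212, both on the opposite strand, the second window of AJUBA held it at -59, and LATS2 held it at position 10 after the start. TPM1 had no match, and CCN1 was not matched to a window. In windows of 300 bases (250 before and 50 after the start) 7 of 11 member windows matched, against 14.03% of all windows. Of the 8 members with a window 7 held GGAATG, so it does not set the 3 shown genes apart. The members were picked as known YAP and SRF readouts, so this share is no separate finding. The higher levels of ANKRD1 and VCL in UPF1-depleted cells are also calls close to the threshold, as given below. The AP-1 site TGANTCA matched 1 of 11, against 7.709%, and the CArG box of SRF matched 0 of 11, against 1.293%. A match is a run of letters and not a shown binding site.

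Signals are RMA intensities on the log2 scale, on which 1 unit is a doubling, and each gene is read from its brightest probe set. The level of a comparison is the fitted difference from control at DRB addition, and a slope is the fitted change in log2 per hr after it. The fitted level draws on all 4 times and can lie above or below the difference measured at 0 hr. Because the authors' normalization equates arrays, a slope describes a transcript against the typical transcript of its array. In RNA from a whole culture, fewer cells that carry a transcript and less of it per cell cannot be told apart. Errors are standard errors (SE) of the limma fits, p-values were adjusted over all 14478 genes tested, and a call is an adjusted p under 0.05. Values of a single named probe set come from a fit of every probe set, with p adjusted over those. Array medians ran from 37.3 to 40.4 intensity units, and precision is set by how few arrays there are. Of 9 measured mesenchymal and bone-lineage genes 8 lay above the filter, at mean log2 13.94 (VIM) to 4.90 (SP7), and COL1A2 (4.41) below it. Their summed signal ran from log2 15.05 to 15.22 in hypoxia, 14.94 to 15.07 in tunicamycin, 14.83 to 14.88 in emetine and 14.89 to 14.95 with UPF1 depleted, against 15.10 to 15.20 in control, so that only hypoxia overlapped control. Of the 8 tested, 4 were lower and 1 higher in emetine, 3 lower and 0 higher in UPF1-depleted cells, 1 lower and 1 higher in hypoxia and 0 called in tunicamycin. Markers of other cell types lay above the filter for 9 of 16 measured genes. Among these were EPCAM (8.11), ACTC1 (7.86), the endothelial genes PECAM1 (6.25) and VWF (5.26) and the T-cell gene CD3E (4.90). Those below the filter included the leukocyte gene PTPRC (3.33), the endothelial gene CDH5 (3.76), the hepatocyte gene ALB (3.69), CDH1 (4.69) and MYH2 (3.74). Summed, the markers of other cell types ran from log2 9.93 to 10.39 in hypoxia and 9.80 to 10.10 in tunicamycin. They ran from 9.66 to 9.97 in emetine and 9.81 to 10.21 with UPF1 depleted, against 9.86 to 10.37 in control. The part of either marker list in the levels reported here was not tested. UPF1 itself averaged log2 6.75 ± 0.44 (SD of 4 arrays) in the depleted cells, against 8.53 ± 0.07 in control. Among all genes called, the higher share depended on scaling: for control slopes it was 44.9% as deposited, 59.7% after quantile normalization and 27.6% with arrays centred on ribosomal protein genes. In the same order it was 52%, 57% and 33.4% for slopes in hypoxia, 49.2%, 58.7% and 24.4% in tunicamycin, 17.5%, 15.8% and 6.56% in emetine and 39.9%, 59.9% and 20.7% with UPF1 depleted. It was 89%, 76.1% and 89.9% for slope differences in emetine, and 70.8%, 51.7% and 61.5% for levels in UPF1-depleted cells.

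The 9 transcripts fell into a labile set and a stable set. In control cells CCN1, CCN2, AMOTL2, ANKRD1, LATS2 and AJUBA fell after DRB, 6 of 9, where 17.5% of all tested genes fell, and TPM1 rose, where 14.2% rose. The same 6 fell in hypoxia (background 14.2%) and in UPF1-depleted cells (16.5%), and 4 of them, all but ANKRD1 and AJUBA, fell in tunicamycin (11.4%). In emetine 0 of 9 fell in the limma fit, where 0.325% of genes did, and 1 had an unadjusted p under 0.05. The slope itself was higher in emetine than in control for the 6 labile transcripts and for no other member, against 12.8% of all genes. The labile set was named from falls in the same control arrays that enter this difference. With few slopes called in emetine, a fall in control goes far to give a positive difference, so this count is no separate finding. The share among only the genes that fell in control is not given here. AXL, VCL and TPM1 had slopes between -0.015 ± 0.024 (VCL in tunicamycin) and 0.084 ± 0.026 (TPM1 in control) log2 per hr.

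**Figure D1:**
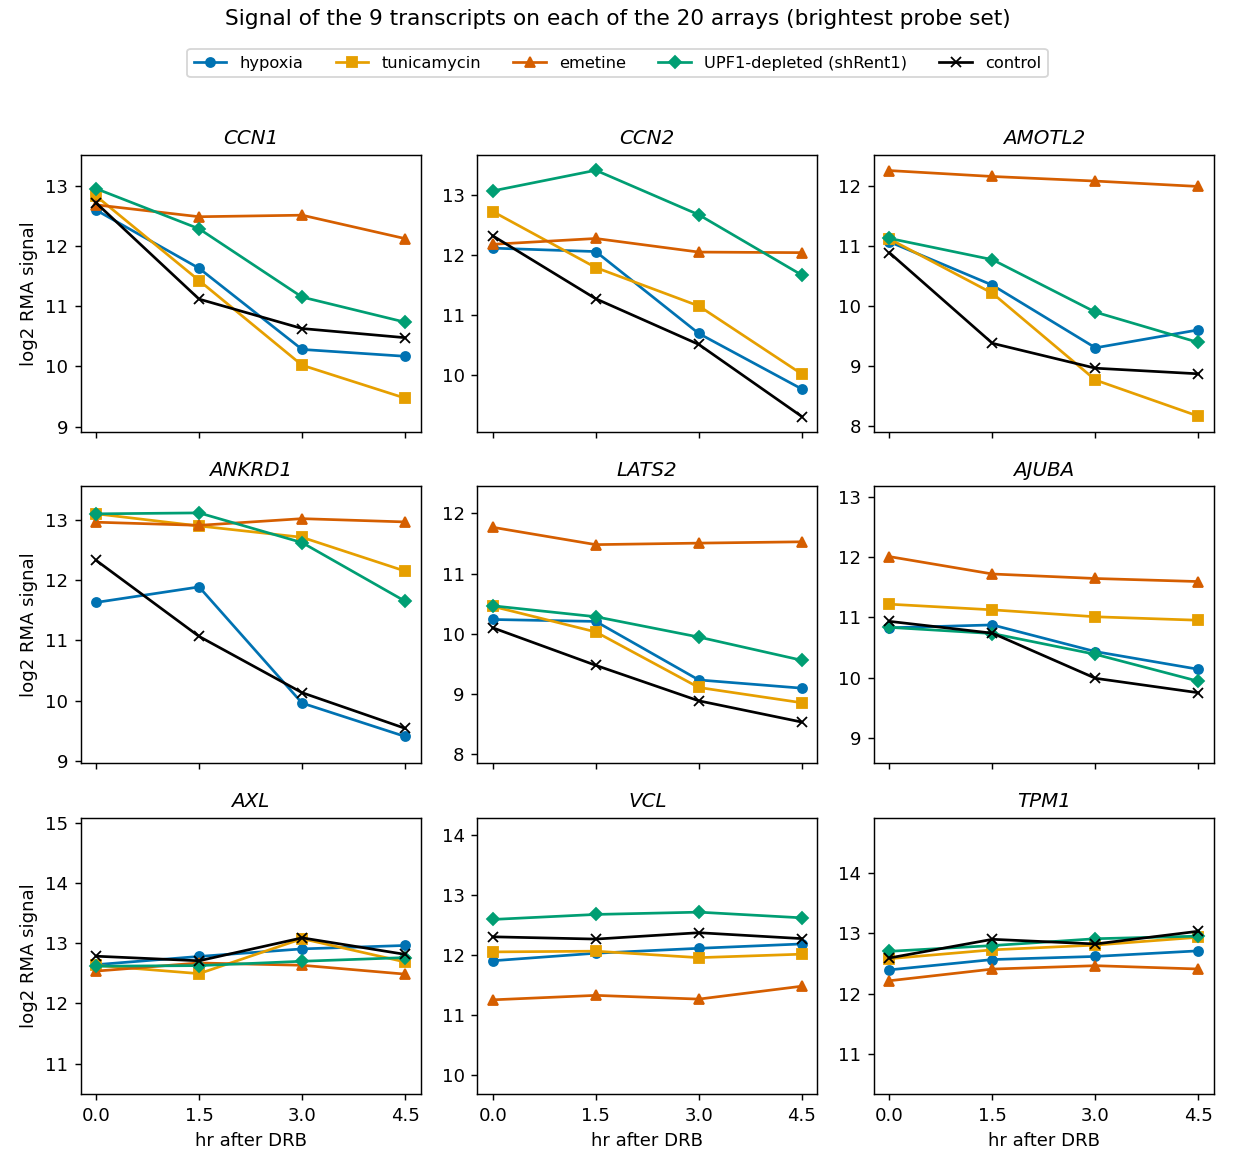
Log2 RMA signal (vertical axis) of each of the 9 transcripts against hr after DRB (horizontal axis), 1 point per array and 1 line per condition, with panels of equal height in log2 units. The 6 labile transcripts lie nearly level in emetine and descend in control, while AXL, VCL and TPM1 change little with time and VCL lies lowest in emetine and highest with UPF1 depleted.

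**Figure D2:**
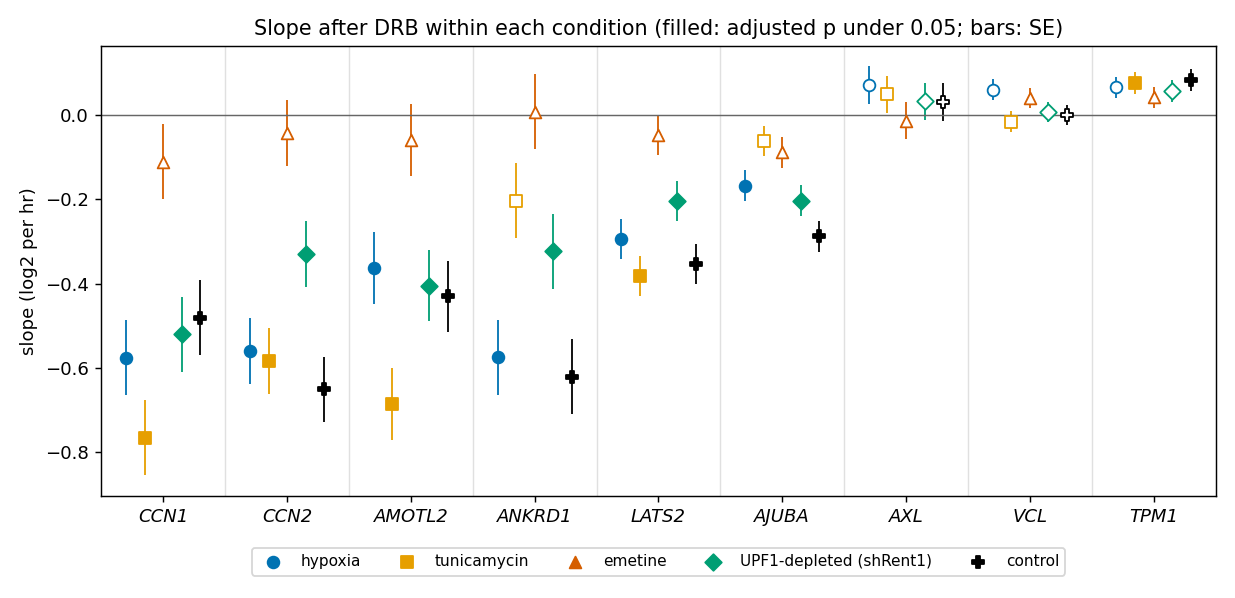
Fitted slope after DRB in log2 per hr (vertical axis) for each member and condition, bars showing the SE and filled symbols an adjusted p under 0.05. Slopes in emetine lie from -0.11 to 0.04, and control slopes of the 6 labile transcripts from -0.65 to -0.29.

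CCN1 and CCN2 encode secreted matricellular proteins that bind integrins, and they are the classic immediate targets of YAP. From 0 to 4.5 hr CCN1 read 12.60, 11.63, 10.28 and 10.17 in hypoxia, 12.84, 11.43, 10.02 and 9.47 in tunicamycin and 12.69, 12.49, 12.52 and 12.13 in emetine. It read 12.96, 12.29, 11.15 and 10.74 in UPF1-depleted cells and 12.72, 11.12, 10.63 and 10.48 in control. At 0 hr all 5 arrays lay within 0.4 log2 units at this brightest probe set, and the groups separated afterwards. A second probe set, 210764_s_at, was less even at 0 hr. It read 11.91 in hypoxia, 12.58 in tunicamycin, 12.20 in emetine, 12.65 with UPF1 depleted and 12.56 in control. By 4.5 hr CCN1 kept 18.5% of its starting signal in hypoxia, 9.72% in tunicamycin, 67.8% in emetine, 21.4% in UPF1-depleted cells and 21.1% in control. The slope was -0.11 ± 0.089 log2 per hr in emetine and -0.48 ± 0.089 in control, a difference of 0.37 ± 0.10 (adjusted p = 0.0237). Much of the loss in control fell between the first arrays, where 33% was left at 1.5 hr. Without the control array at 0 hr the control slope was -0.21 (adjusted p = 0.259) and the difference in emetine 0.15 (adjusted p = 0.522), and without the emetine array at 0 hr the difference was 0.24 (adjusted p = 0.362). The second probe set gave a difference in emetine of 0.46 ± 0.12 (adjusted p = 0.0265). Tunicamycin was the condition with the steepest fitted CCN1 slope (-0.77 ± 0.089), but its difference from control did not pass (-0.29 ± 0.10, adjusted p = 0.141).

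CCN2 read 12.11, 12.06, 10.69 and 9.77 in hypoxia, 12.72, 11.79, 11.15 and 10.02 in tunicamycin and 12.18, 12.27, 12.05 and 12.04 in emetine. It read 13.07, 13.41, 12.67 and 11.67 in UPF1-depleted cells and 12.32, 11.27, 10.51 and 9.31 in control. Emetine and UPF1 depletion gave different pictures: emetine cells started near the control signal and kept their own, while UPF1-depleted cells started above control and fell later. The slope difference in emetine was 0.61 ± 0.092 log2 per hr (adjusted p = 0.000547), and 90.8% of the starting signal was left at 4.5 hr in emetine, against 12.4% in control. It was the only one of the 6 calls that held without the control array at 0 hr. In UPF1-depleted cells the fitted level was 2.18-fold that of control (log2 1.12 ± 0.26, adjusted p = 0.0131), against 1.68-fold as measured at 0 hr. This level rests on the first control array too, without which it was 1.55 (adjusted p = 0.0635), and it was 1.79 without the depleted array at 0 hr. The slope of CCN2 in depleted cells was -0.33 ± 0.078 (adjusted p = 0.00714), and -0.13 without the array at 4.5 hr (adjusted p = 0.47). Its difference from control was 0.32 ± 0.092 (adjusted p = 0.396) and did not pass.

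AXL encodes a receptor tyrosine kinase for the ligand GAS6 and is a YAP target in tumour cells. It read 12.64, 12.78, 12.91 and 12.96 in hypoxia, 12.63, 12.50, 13.08 and 12.69 in tunicamycin and 12.54, 12.67, 12.63 and 12.49 in emetine. It read 12.62, 12.63, 12.70 and 12.76 in UPF1-depleted cells and 12.79, 12.71, 13.09 and 12.82 in control. Only the emetine arrays lay wholly below the control arrays, and by a small margin. No level of this probe set passed, from -0.18 ± 0.15 in UPF1-depleted cells to -0.12 ± 0.15 in hypoxia, and no slope passed the test against 0 or against control. A second, dimmer probe set was lower in emetine (-0.60 ± 0.12, adjusted p = 0.00244) and rose after DRB in control (0.12 ± 0.029 log2 per hr, adjusted p = 0.0129).

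LATS2, the kinase that restrains YAP, is itself a YAP target. It read 10.24, 10.20, 9.23 and 9.09 in hypoxia, 10.45, 10.03, 9.10 and 8.85 in tunicamycin and 11.77, 11.48, 11.51 and 11.53 in emetine. It read 10.46, 10.28, 9.94 and 9.56 in UPF1-depleted cells and 10.10, 9.47, 8.88 and 8.53 in control. All 4 emetine arrays lay above every control array. At DRB addition LATS2 was 3.11-fold higher in emetine than in control (log2 1.64 ± 0.17, adjusted p = 1.31e-05). Its slope was -0.047 ± 0.047 in emetine and -0.35 ± 0.047 in control, a difference of 0.31 ± 0.060 (adjusted p = 0.00379). The higher level at DRB addition was seen in all 4 probe sets of the gene, at 2.12 ± 0.14 in 230348_at, 1.42 ± 0.10 in 223380_s_at and 0.69 ± 0.16 in 223379_s_at. Over the 4 times, however, 223379_s_at overlapped control. It was higher at 2 times and lower at 2, with a mean difference of 0.26 ± 0.43 (SD over times). In control 223380_s_at fell too (-0.13 ± 0.027 log2 per hr). The other probe sets were dim in control, 230348_at at log2 4.94 to 5.15 and 223379_s_at at 5.66 to 6.04, and their slopes there did not pass. From 0 to 4.5 hr in control they changed by 0.20 and 0.38 log2 units. In tunicamycin and in UPF1-depleted cells 230348_at changed by -0.49. The part of low signal in this was not tested. With the median of the probe sets the slope difference in emetine was 0.080 (adjusted p = 0.205), and the slope in UPF1-depleted cells -0.032 (adjusted p = 0.381). Without the control array at 0 hr the difference was 0.25 (adjusted p = 0.109), and without the emetine array at 4.5 hr 0.30 (adjusted p = 0.0627). Probe set 223380_s_at was higher in hypoxia (0.39 ± 0.10, adjusted p = 0.043), where the brightest probe set had 0.31 ± 0.17 (adjusted p = 0.302).

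AMOTL2, an angiomotin family scaffold that binds YAP and holds it at cell junctions, read 11.07, 10.35, 9.31 and 9.61 in hypoxia, 11.12, 10.21, 8.77 and 8.17 in tunicamycin and 12.26, 12.16, 12.08 and 11.99 in emetine. It read 11.13, 10.77, 9.90 and 9.39 in UPF1-depleted cells and 10.89, 9.38, 8.97 and 8.87 in control. Every emetine array lay above every control array by more than 1 log2 unit. Its fitted level in emetine was 3.38-fold that of control (log2 1.76 ± 0.28, adjusted p = 0.00038), against 2.58-fold as measured at 0 hr. The slope was -0.058 ± 0.085 in emetine and -0.43 ± 0.085 in control (difference 0.37 ± 0.10, adjusted p = 0.0248). With the control array at 0 hr left out this slope difference was 0.13, and with the emetine array left out 0.29 (adjusted p = 0.572 and 0.289). The control slope was -0.17 without the array at 0 hr (adjusted p = 0.35). In hypoxia its slope (-0.36 ± 0.085) was -0.25 without the array at 0 hr (adjusted p = 0.293) and -0.59 when the one at 4.5 hr was left out (adjusted p = 0.007).

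AJUBA encodes a LIM-domain adaptor that binds LATS kinases at sites of tension. It read 10.83, 10.88, 10.43 and 10.14 in hypoxia, 11.22, 11.13, 11.01 and 10.95 in tunicamycin and 12.01, 11.72, 11.65 and 11.60 in emetine. It read 10.83, 10.73, 10.39 and 9.94 in UPF1-depleted cells and 10.93, 10.74, 9.99 and 9.75 in control. Both the tunicamycin and the emetine arrays lay wholly above the control arrays. It is the 1 member that in tunicamycin had a slope above that in control (0.23 ± 0.049 log2 per hr, adjusted p = 0.0182), where 4.66% of all genes did. In emetine the slope difference was 0.20 ± 0.049 (adjusted p = 0.0149) and the level 1.92-fold that of control (log2 0.94 ± 0.14, adjusted p = 0.000183). The slope differences did not pass without the control array at 0 hr (adjusted p = 0.137 in tunicamycin and 0.0962 in emetine), nor without the 4.5 hr arrays of control (0.0709 and 0.0519) or of the treatment (0.166 and 0.243), and in tunicamycin not without that at 0 hr (0.112). The probe sets of AJUBA differed in level: 1553764_a_at was higher in emetine too (0.78 ± 0.17), whereas 225807_at had -0.45 ± 0.24 (adjusted p = 0.163), and the median of the probe sets gave 0.16 (adjusted p = 0.517). In slope, 225807_at had larger differences, 0.49 ± 0.084 in tunicamycin and 0.58 ± 0.084 in emetine, whereas 1553764_a_at passed in emetine (0.23 ± 0.060, adjusted p = 0.0304) and not in tunicamycin (0.23 ± 0.060, adjusted p = 0.0662).

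ANKRD1 encodes an ankyrin repeat protein of the nucleus and, in muscle, of the sarcomere, and is one of the most responsive YAP targets. It read 11.63, 11.89, 9.96 and 9.40 in hypoxia, 13.11, 12.90, 12.72 and 12.15 in tunicamycin and 12.97, 12.91, 13.03 and 12.97 in emetine. It read 13.11, 13.12, 12.63 and 11.65 in UPF1-depleted cells and 12.33, 11.07, 10.13 and 9.54 in control. In emetine its signal stayed level, with 100% left at 4.5 hr, against 14.4% in control. The slope difference in emetine was 0.63 ± 0.12 (adjusted p = 0.00366), 0.40 without the control array at 0 hr (adjusted p = 0.155) and 0.61 without the emetine array at 4.5 hr (adjusted p = 0.0622). In tunicamycin the slope was -0.20 ± 0.089 (adjusted p = 0.116) and its difference from control 0.42 ± 0.12 (adjusted p = 0.0776), neither past the threshold. In UPF1-depleted cells the fitted level was 2.28-fold that of control (log2 1.19 ± 0.35, adjusted p = 0.0397), against 1.71-fold as measured at 0 hr. That call is weak: leaving out single arrays gave adjusted p up to 0.165, and the level was 1.98 without the control array at 0 hr. The slope in depleted cells, -0.32 ± 0.089, was -0.16 when the array at 4.5 hr was left out (adjusted p = 0.485). Slopes of AMOTL2, LATS2 and AJUBA in depleted cells also lost their calls without the array at 4.5 hr (adjusted p = 0.0894, 0.185 and 0.128), and that of CCN1 kept it.

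The signal left after the first interval varied with the condition. Over the first 1.5 hr CCN2 kept 96.1% of its signal in hypoxia, 52.4% in tunicamycin, 107% in emetine and 127% with UPF1 depleted, against 48.4% in control. ANKRD1 kept 120%, 86.9%, 96.4% and 101% in the same order, against 41.6% in control. In hypoxia and in UPF1-depleted cells, then, CCN2 and ANKRD1 held their signal at first and lost it later. The fitted slopes, in hypoxia -0.56 ± 0.078 for CCN2 and -0.57 ± 0.089 for ANKRD1, do not show this. LATS2 kept 97.8% in hypoxia, 74.5% in tunicamycin, 81.9% in emetine and 88.2% with UPF1 depleted, against 64.9% in control. AJUBA kept 103%, 93.7%, 81.8% and 93.1% in the same order, against 87.2% in control. From 1.5 to 3 hr the log2 change in hypoxia was -1.36 for CCN2 and -1.93 for ANKRD1. It was -0.74 and -0.49 with UPF1 depleted, against -0.76 and -0.94 in control. CCN1 and AMOTL2 lost more by then, with 51.1% and 60.7% left at 1.5 hr in hypoxia, against 33% and 35.2% in control. As a background, the median log2 change over the first 1.5 hr among the 2389 genes that fell in UPF1-depleted cells was -0.17 in hypoxia, -0.10 in tunicamycin, 0.034 in emetine and -0.27 with UPF1 depleted, against -0.26 in control. From 1.5 to 3 hr it was -0.34 in hypoxia and -0.33 with UPF1 depleted, against -0.44 in control. These genes were chosen by their fall in the UPF1-depleted arrays, so their change there is negative in part by that choice. Their changes in the other groups are not those of a set chosen without regard to condition. Each interval rests on 1 array at either end and was not tested.

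VCL and TPM1 are the cytoskeletal members and targets of SRF. VCL encodes vinculin, which links integrin adhesions and cadherin junctions to actin. It read 11.90, 12.03, 12.11 and 12.18 in hypoxia, 12.05, 12.06, 11.96 and 12.01 in tunicamycin and 11.25, 11.33, 11.27 and 11.48 in emetine. It read 12.59, 12.67, 12.71 and 12.62 in UPF1-depleted cells and 12.30, 12.26, 12.37 and 12.27 in control. At the brightest probe set none of the 4 groups overlapped the control arrays: hypoxia, tunicamycin and emetine lay below them and UPF1-depleted cells above. The other probe set, 200930_s_at, overlapped control in all 4 groups. At 0 hr it lay above control by 0.32 in hypoxia, 0.15 in tunicamycin, 0.28 in emetine and 0.53 with UPF1 depleted. Its mean difference over the 4 times was -0.24, -0.11, -0.37 and 0.21 in the same order. The level of the brightest probe set in emetine was 0.479-fold that of control (log2 -1.06 ± 0.10, adjusted p = 6.03e-06), a call kept under every alternative. The level was lower in hypoxia (-0.38 ± 0.10, adjusted p = 0.0363) and higher in UPF1-depleted cells (0.33 ± 0.10, adjusted p = 0.0443). Tunicamycin had -0.25 ± 0.10 (adjusted p = 0.22). The calls in hypoxia and in depleted cells lie close to the threshold and were lost without any 1 of several arrays, with adjusted p of 0.423 and 0.321 without the control array at 0 hr. Both were also lost under quantile normalization (adjusted p = 0.0549 and 0.0657) and with no filter (0.0622 and 0.0725). That in depleted cells was lost too with arrays centred on ribosomal protein genes (0.0713), with every probe set fitted (0.0681) and with the median of probe sets (0.104). The median of its probe sets, which for VCL averages the brightest with 200930_s_at, gave -0.54 in emetine (adjusted p = 0.0108) and -0.15 in hypoxia (adjusted p = 0.599). Both are smaller in size than the brightest probe set alone gave, so they are no separate check of it. No slope of VCL passed the test against 0 in any group.

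TPM1 encodes tropomyosin 1, which stabilizes actin filaments. It read 12.39, 12.57, 12.62 and 12.71 in hypoxia, 12.58, 12.73, 12.81 and 12.94 in tunicamycin and 12.21, 12.41, 12.46 and 12.41 in emetine. It read 12.70, 12.80, 12.91 and 12.96 in UPF1-depleted cells and 12.59, 12.90, 12.83 and 13.04 in control. Only the emetine arrays lay wholly below control. Its level in emetine was 0.772-fold that of control (log2 -0.37 ± 0.095, adjusted p = 0.00751), with an adjusted p of 0.0693 without the control array and 0.213 without the emetine array at 0 hr. TPM1 rose after DRB in control (0.084 ± 0.026, adjusted p = 0.0243) and in tunicamycin (0.077 ± 0.026, adjusted p = 0.0456, where 11% of all genes rose). With arrays centred on ribosomal protein genes neither rise passed (adjusted p = 0.0595 and 0.17), nor did that in control without the control array at 0 hr (0.045 log2 per hr, adjusted p = 0.539). TPM1 is spliced into many isoforms and its 6 probe sets disagreed. At 206116_s_at the level was lower in hypoxia (-1.01 ± 0.12, adjusted p = 0.000632) and in emetine (-1.10 ± 0.12, adjusted p = 2.95e-05), and 210987_x_at gave -0.66 ± 0.10 and -0.95 ± 0.10. The brightest probe set had -0.23 ± 0.095 in hypoxia (adjusted p = 0.167). In UPF1-depleted cells 206117_at was lower (-0.44 ± 0.12, adjusted p = 0.0423), while the brightest probe set had 0.060 ± 0.095. One probe set, 238688_at, fell after DRB in control (-0.37 ± 0.12 log2 per hr, adjusted p = 0.0382). Which isoforms these probe sets detect is not given in the sources used here.

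**Figure D3:**
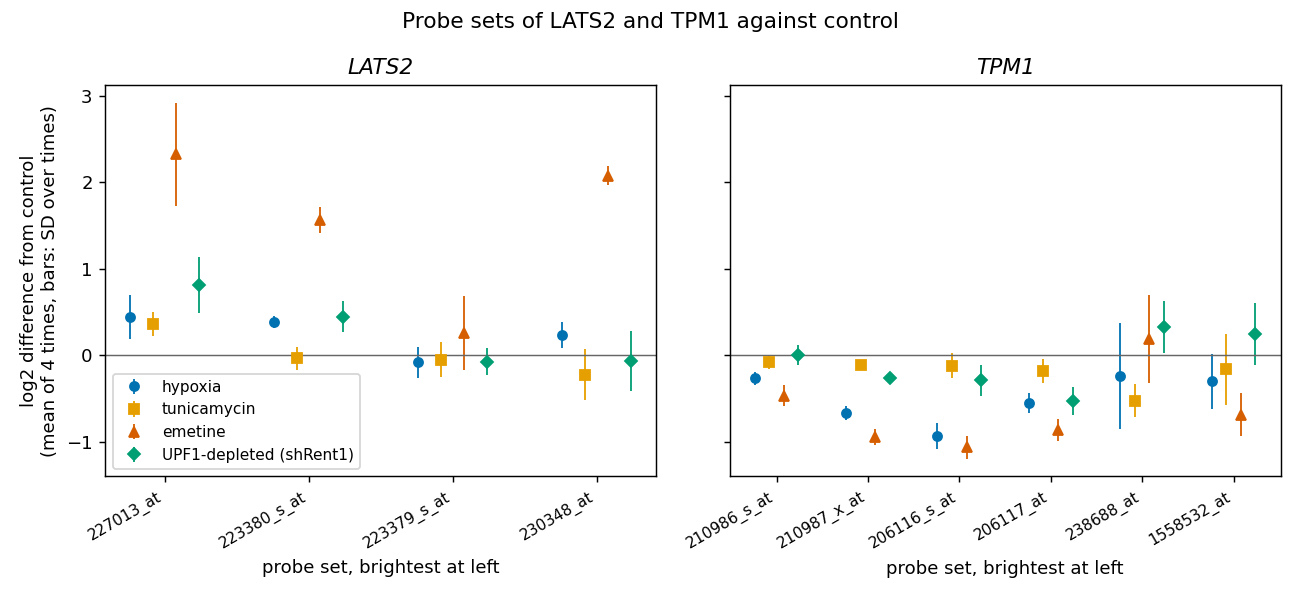
Log2 difference from control (vertical axis), averaged over the 4 times with bars for the SD over times, for every probe set of LATS2 and TPM1, brightest at left. The emetine points of LATS2 range widely with the probe set, and those of TPM1 lie below 0 in 5 of 6 probe sets.

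Beside these differences in level, the balance between the ends of ACTB, an SRF target with array probe sets at both ends, differed between groups. Signal at the 3' end exceeded that at the 5' end by a log2 ratio of 2.04 ± 0.13 in hypoxia, 0.54 ± 0.11 in tunicamycin, 2.04 ± 0.19 in emetine and 1.24 ± 0.06 with UPF1 depleted, against 0.55 ± 0.10 in control (SD of 4 arrays). The ratio of GAPDH was 0.15 ± 0.04 in hypoxia, 0.11 ± 0.03 in emetine and 0.04 ± 0.04 in control. The part of RNA quality in the levels of VCL and TPM1 was not tested.

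Counted by comparison, emetine had the most member levels past the test: AMOTL2, LATS2 and AJUBA were higher and VCL and TPM1 lower, 5 of 9, where 18.9% of all genes were higher and 19.8% lower. CCN1 (0.38 ± 0.28), CCN2 (-0.089 ± 0.26) and ANKRD1 (0.79 ± 0.35, adjusted p = 0.091) did not pass in emetine. UPF1 depletion gave 3 higher levels, CCN2, ANKRD1 and VCL, against 9.68% of all genes. Hypoxia gave 1 lower level, VCL, against 4.44%. Tunicamycin gave 0 in limma, against 2.89% of genes in either direction, with 4 members at an unadjusted p under 0.05 and ANKRD1 highest (1.01 ± 0.35, adjusted p = 0.149). For slope differences, hypoxia had 0 of 9 members past the test (1 at an unadjusted p under 0.05), where 0.0345% of genes passed. UPF1 depletion had 0 of 9 (3 at an unadjusted p under 0.05), where 0.0414% passed. The median level of the members was -0.053 in hypoxia, 0.34 in tunicamycin, 0.38 in emetine and 0.48 with UPF1 depleted, where the median of all genes tested was -0.016, -0.029, -0.076 and 0.015.

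**Figure D4:**
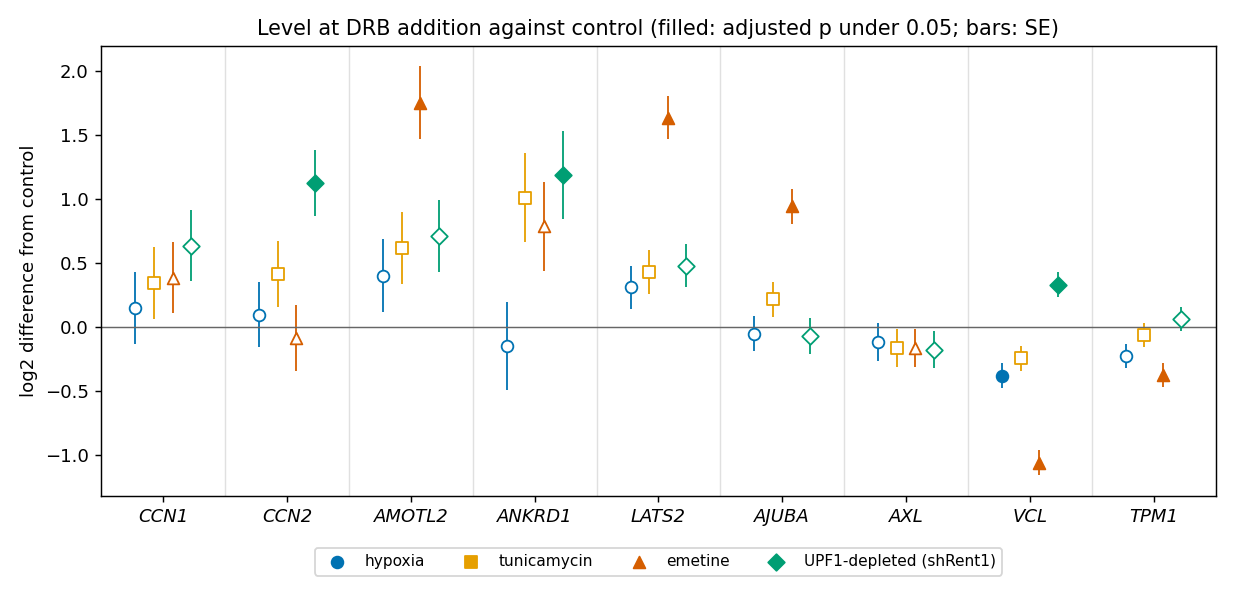
Fitted log2 difference from control at DRB addition (vertical axis) for each member in the 4 conditions, bars showing the SE and filled symbols an adjusted p under 0.05. Emetine is above control for AMOTL2 (1.76), LATS2 (1.64) and AJUBA (0.94) and below it for VCL (-1.06) and TPM1 (-0.37).

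Averaged over the 4 times, the emetine difference from control was 2.59 ± 0.83 for AMOTL2, 2.33 ± 0.60 for LATS2, 2.20 ± 1.24 for ANKRD1, 1.39 ± 0.43 for AJUBA and -0.97 ± 0.14 for VCL (log2, SD over 4 times). The differences of AMOTL2, ANKRD1 and LATS2 were smallest at 0 hr and grew as the control signal fell. At its brightest probe set VCL had the same sign at 4 of 4 times in each of the 4 conditions. It was positive in UPF1-depleted cells (0.35 ± 0.050) and negative in hypoxia (-0.25 ± 0.13) and tunicamycin (-0.28 ± 0.093). At 200930_s_at the sign was mixed over the times in all 4 conditions. ANKRD1 was higher at 4 of 4 times in tunicamycin (1.95 ± 0.86), emetine and UPF1-depleted cells (1.86 ± 0.75). In hypoxia it was higher at 1 and lower at 3 of the times (-0.046 ± 0.63).

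Among the regulators, YAP1 passed the test for its level in none of the 4 conditions, with log2 differences of 0.21 ± 0.15 in hypoxia, -0.087 ± 0.15 in tunicamycin, 0.0077 ± 0.15 in emetine and 0.0093 ± 0.15 with UPF1 depleted. Of 20 Hippo kinases, adaptors and transcription factors tested, emetine left 5 higher and 5 lower, a share close to that of all genes (18.9% and 19.8%). The kinases LATS1 (1.39 ± 0.20) and STK3 (0.86 ± 0.13) and the TEAD cofactor VGLL4 (0.64 ± 0.12) were among the higher. WWTR1, encoding TAZ (-1.22 ± 0.16), the tumour suppressor NF2 (-0.79 ± 0.094) and AMOTL1 (-0.56 ± 0.11) were among the lower. The calls of LATS1, STK3, WWTR1 and NF2 in emetine held under every alternative. That of AMOTL1 was lost in 3 of 30 and that of VGLL4 in 1 of 29. Hypoxia left 1 of 20 higher, where 3.21% of all genes were, and 4 lower, where 4.44% were. The higher one was VGLL4 (0.76 ± 0.12), and FRMD6 (-0.82 ± 0.15), NF2 (-0.46 ± 0.094), WWC1 (-0.61 ± 0.15) and TEAD1 (-0.66 ± 0.17, but 0.07 with the median of its probe sets) were lower. Each of these 5 calls was lost when the control array at 0 hr was left out. Tunicamycin left 0 of 20 past the limma test (3 at an unadjusted p under 0.05). UPF1 depletion left 2 higher (9.68% of all genes), TEAD2 (0.47 ± 0.12) and MOB1B (0.58 ± 0.15), and 1 lower (3.99% of all genes), WWC1 (-0.55 ± 0.15), each lost in 4 to 7 of 30 alternatives. Of 6 genes for SRF and its coactivators, emetine left SRF (-0.81 ± 0.16) and ELK3, an SRF partner of the ETS family (-0.66 ± 0.15), lower. MRTFA was higher (0.94 ± 0.12, but -0.03 with the median of its probe sets). The call of SRF was lost without the control array at 0 hr (adjusted p = 0.132). That of ELK3 was lost without the emetine array at 0 hr (adjusted p = 0.21). In each other condition 0 of the 6 passed in limma, with 2 at an unadjusted p under 0.05 in hypoxia, 0 in tunicamycin and 0 in UPF1-depleted cells.

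Genes known as further YAP and TEAD targets moved in both directions. Of 23 tested, emetine left 6 higher, where 18.9% of all genes were, and 8 lower, where 19.8% were, with a median of 0.019, against -0.076 over all genes. PTGS2, the inducible cyclooxygenase, was 18.6-fold higher (4.21 ± 0.28) and the kinase gene NUAK1 2.3-fold (1.20 ± 0.13), both under every alternative, and MYOF was higher by 0.36 ± 0.094 (but -0.67 without s_at and x_at probe sets). EDN1, which encodes endothelin 1, was lower (-2.19 ± 0.15), though with the median of its probe sets it had -0.62 (adjusted p = 0.0954). F3, which encodes tissue factor, was lower at DRB addition (-0.91 ± 0.14) but not in the mean over the 4 times (-0.22, adjusted p = 0.341), and FOXF2 (-0.74 ± 0.14) lost its call in 2 of 30 alternatives. Hypoxia left 3 of 23 higher (3.21% of all genes), PTGS2 (1.57 ± 0.28), F3 (0.72 ± 0.14) and MYOF (0.39 ± 0.094), and 2 lower (4.44% of all genes), EDN1 (-0.74 ± 0.15) and RBMS3 (-0.64 ± 0.11). Tunicamycin left 2 higher (1.97% of all genes), PTGS2 (2.73 ± 0.28) and ETV5, an ETS transcription factor gene (1.30 ± 0.12), and 0 lower (0.926% of all genes), with 5 at an unadjusted p under 0.05. UPF1 depletion left 2 higher (9.68% of all genes), ETV5 (1.16 ± 0.12) and PTGS2 (1.05 ± 0.28), and 4 lower (3.99% of all genes), among them EDN1 (-0.91 ± 0.15), RBMS3 (-0.51 ± 0.11) and ARHGAP29 (-0.56 ± 0.13). Among these named calls in hypoxia and UPF1-depleted cells only that of ETV5 held under every alternative. In emetine 7 of the 23 had a higher slope than control, where 12.8% of all genes did, and 1 a lower one, where 1.58% did. TNFRSF12A (0.43 ± 0.045 log2 per hr), UGCG (0.51 ± 0.060) and NUAK1 (0.34 ± 0.048) were among the higher, under every alternative, and ETV5 was the lower one (-0.15 ± 0.043), lost in 6 of 29.

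Of 31 further SRF and MRTF targets of the actin cytoskeleton tested, 19 were lower in emetine, where 19.8% of all genes were, and 2 higher, where 18.9% were, with a median of -0.42, against -0.076 over all genes. FHL2 (-1.54 ± 0.12), TAGLN, which encodes the actin-binding protein transgelin (-1.63 ± 0.13), and TGFB1I1 (-1.31 ± 0.12) were among the lower, under every alternative. The integrin gene ITGA5 (0.82 ± 0.15) and TUFT1 (1.12 ± 0.26) were the higher, and both calls were lost without the emetine array at 0 hr. In hypoxia 0 were higher (3.21% of all genes) and 7 lower (4.44% of all genes), with a median of -0.28, against -0.016. TPM4 (-0.77 ± 0.14), CORO1C (-0.43 ± 0.090) and TAGLN (-0.58 ± 0.13) were among them, and each lost its call in 3 or 4 of 30 alternatives, the control array at 0 hr left out being one. In UPF1-depleted cells 1 was higher (9.68% of all genes), TUFT1 (0.89 ± 0.26), and 5 were lower (3.99% of all genes). Among the lower were TLN1, the gene of talin 1 (-0.84 ± 0.11), CORO1C (-0.40 ± 0.090, but 0.06 without s_at and x_at probe sets) and TAGLN2 (-0.37 ± 0.10). TLN1 lost its call without s_at and x_at probe sets (adjusted p = 0.0834). CORO1C lost its call in 3 further alternatives, and TAGLN2 in 6 of 30, with adjusted p up to 0.393. In tunicamycin 1 was higher (1.97% of all genes), TUFT1 (1.15 ± 0.26), and 0 lower (0.926% of all genes), with 3 at an unadjusted p under 0.05. TUFT1 lost its call in 13 of 29 alternatives in tunicamycin and in 15 in UPF1-depleted cells, with adjusted p up to 0.194 and 0.114. Emetine and hypoxia, with the most lower genes of this list, also had the highest ACTB end ratios given above, and the part of RNA quality in these counts was not tested.

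**Figure D5:**
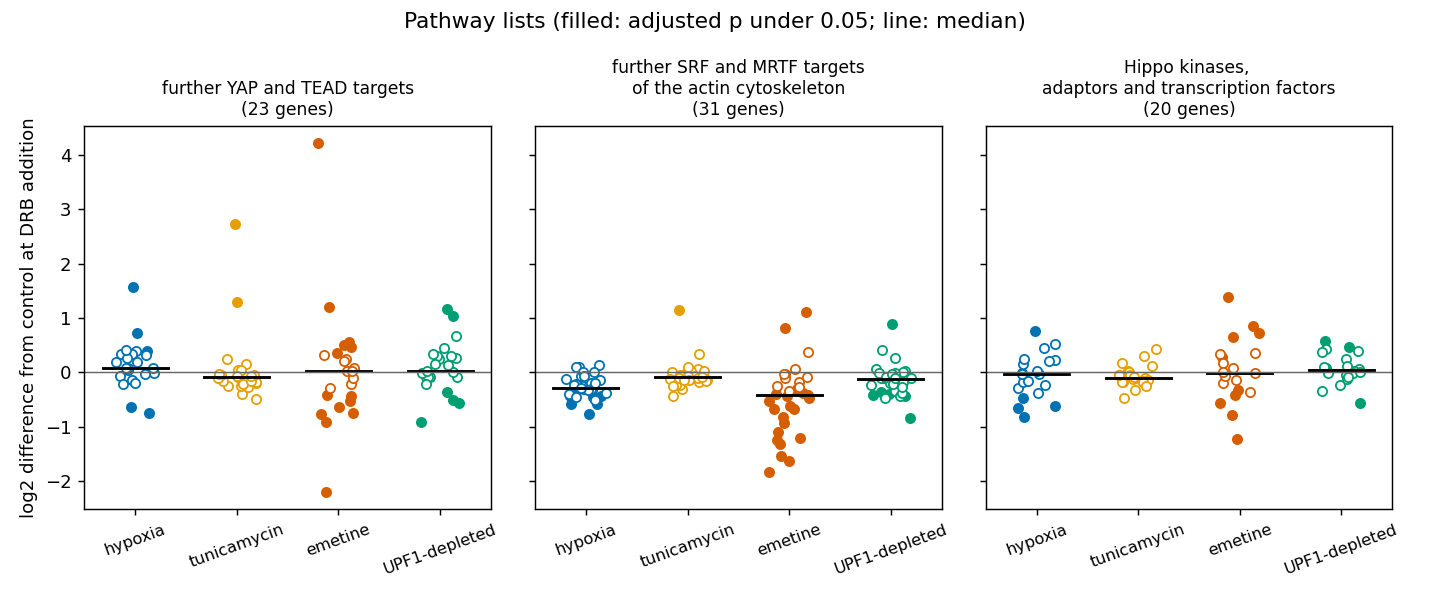
Log2 difference from control at DRB addition (vertical axis) for each gene of 3 pathway lists in the 4 conditions, filled where the adjusted p was under 0.05, with a bar at the median of the list. In emetine 19 of 31 actin genes are filled below 0, while the YAP and TEAD targets and the Hippo genes scatter to both sides.

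Across the 20 arrays the members' signals were not of one pattern. AMOTL2 and LATS2 had a Pearson r of 0.96, CCN1 and AMOTL2 of 0.90, CCN1 and CCN2 of 0.82 and CCN2 and ANKRD1 of 0.81, given as a description since the arrays share conditions and times. VCL had r = -0.79 with AJUBA and 0.76 with TPM1, and 0.01 with CCN2. The genes with the most similar signals outside the members were TRIB1, UTP3 and WEE1 for CCN1 (r from 0.96 to 0.95), KMT2D, NFYA and KCTD2 for CCN2 (0.96 to 0.94) and MIDN, ID2 and MIER3 for AMOTL2 (0.98). They were RAE1, ABRAXAS2 and LSG1 for ANKRD1 (0.97), TUT7, METTL14 and ZNF367 for LATS2 (0.98) and RAB9A, FAM53C and ASB7 for AJUBA (0.99 to 0.98). For AXL they were JMJD8, HTRA3 and OXCT2 (0.87 to 0.85), for VCL PPM1F, IL15RA and VMA21 (0.96 to 0.95) and for TPM1 NCS1, LINC00460 and ARMC10 (0.98 to 0.97).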

How the data were processed

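The authors' deposited values are RMA intensities on a linear scale, 1 column for each array, made with RMA per the submitters' processing notes, with no version given in the sources used here. They were taken to log2, and each gene was read from its brightest probe set with a single symbol. A gene was tested if its mean exceeded log2 4.70, the 40th percentile over probe sets, which kept 14478 of 19775. limma 3.58.1 in R 4.3.3 fitted time as a factor, condition, and a slope for each condition against control (8 residual degrees of freedom). Slopes came from a line for each condition (10 degrees of freedom). Benjamini-Hochberg adjustment covered all genes tested, and the threshold was 0.05. No time point was repeated, so the error comes from the scatter of arrays around the fit and p-values measure only that. Members and pathway lists were chosen with earlier results of these data known. The text names all members, from each pathway list and comparison described at most 3 called genes in each direction, those with the largest moderated statistics, some central regulators, and the 3 genes with the highest correlation to each member. Alternatives covered the normalization, filter, choice of probe sets, model and leaving out each array. Promoters came from RefSeq tables, with 11 windows for 8 members.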

Additional observations from a re-analysis of the deposited data

Results flagged for a closer look

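LATS2 in emetine had 1 array far from the other 3: the array at 0 hr read 11.77, against 11.48 to 11.53 at later times, a gap of 0.8363 of the whole range. It was the only such case among 45 groups of 4 arrays. Chance alone gives about 1 in 20, so 1 case is no more than chance would give. The 4 arrays are also different times.

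The other results are slopes after DRB that differed from control in the limma interaction test. In tunicamycin the AJUBA slope differed by 0.2264 log2 per hr. In emetine the differences were 0.3706 for CCN1, 0.609 for CCN2, 0.3724 for AMOTL2, 0.6297 for ANKRD1, 0.3065 for LATS2 and 0.1996 for AJUBA. All 6 differences in emetine were positive, and they share the same 4 control arrays.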

How the results depend on the processing

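The design has 1 array for each condition and time. Levels with the mean over the 4 times, in place of the fit at DRB addition, called 2 members in hypoxia, 3 in tunicamycin, 9 in emetine and 4 with UPF1 depleted, against 1, 0, 5 and 3. For the level in hypoxia, quantile normalization and no filter called 0 and the trended, robust eBayes 2. For that in UPF1-depleted cells, fitting every probe set called 1. Leaving out each array gave levels of 0 to 1 member in hypoxia, 4 to 6 in emetine and 1 to 3 with UPF1 depleted, slopes of 5 to 7 in hypoxia, 4 to 5 in tunicamycin, 1 to 6 in UPF1-depleted cells and 4 to 7 in control, and slope differences of 0 to 2 in tunicamycin and 1 to 6 in emetine. The 1 in emetine came without the control array at 0 hr, and the 1 for slopes in UPF1-depleted cells without their array at 4.5 hr. Over all genes, levels with the mean over the 4 times called 2883 in hypoxia, 3260 in tunicamycin, 9246 in emetine and 4540 with UPF1 depleted, against 1108, 419, 5601 and 1978. Tunicamycin levels were 683 with the trended, robust eBayes and 234 with the line model, and hypoxia levels 688 without s_at and x_at probe sets. Slope differences in tunicamycin were 468 to 501, against 758, with the line model, the median of probe sets or those kinds left out, and were 0 to 54, against 5, in hypoxia. Slopes called in emetine were 123 with the median of probe sets, against 57. For UPF1 depletion slope differences numbered 1 to 29, against 6. The mean over the 4 times has no slope terms, so its level takes in differences that arose after DRB and is another quantity. The part of this in the counts was not tested, nor was the cause of the other changes. 

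Of 117 member estimates, 40 were called; 17 of these were called under every alternative and 0 reversed. Among the 77 not called, 30 reversed somewhere. Of 59 called estimates of pathway genes, 15 were called under every alternative and 5 reversed somewhere. The sign turned with arrays centred on ribosomal protein genes for the level in UPF1-depleted cells of YAP1 (-0.026), the slope in UPF1-depleted cells of VCL (-0.014), the slope in control of VCL (-0.019), the slope in emetine of ANKRD1 (-0.0093). The sign turned with the mean over the 4 times for the level in UPF1-depleted cells of AJUBA (0.12), YAP1 (-0.0055), the level in emetine of CCN2 (1.28), YAP1 (-0.020), the level in hypoxia of CCN1 (-0.066), AJUBA (0.22), the level in tunicamycin of CCN1 (-0.30). The sign turned with the median of probe sets for the level in UPF1-depleted cells of TPM1 (-0.37), YAP1 (-0.060), the level in emetine of YAP1 (-0.27), MRTFA (-0.034), the level in hypoxia of CCN1 (-0.11), TEAD1 (0.073), YAP1 (-0.063), the slope in emetine of AXL (0.018), the slope in tunicamycin of VCL (0.039), the slope difference in UPF1-depleted cells of VCL (-0.051), the slope difference in emetine of VCL (-0.057), MRTFB (-0.13), the slope difference in hypoxia of LATS2 (-0.024), VCL (-0.041), TPM1 (0.0056), the slope difference in tunicamycin of TPM1 (0.065). The sign turned with quantile normalization for the level in UPF1-depleted cells of YAP1 (-0.055), the level in emetine of YAP1 (-0.014), the slope in control of VCL (-0.016), the slope in emetine of ANKRD1 (-0.0050). The sign turned with probe sets of the s_at and x_at kinds left out for the level in UPF1-depleted cells of TPM1 (-0.44), CORO1C (0.063), the level in emetine of MYOF (-0.67), the slope difference in tunicamycin of TPM1 (0.068). With each array left out, estimates that turned sign ranged as follows. Among levels these were in UPF1-depleted cells AJUBA -0.14 to 0.085, TPM1 -0.013 to 0.11, YAP1 -0.090 to 0.12, in emetine CCN2 -0.37 to 0.34, AXL -0.26 to 0.020, YAP1 -0.092 to 0.12, in hypoxia CCN1 -0.13 to 0.91, CCN2 -0.12 to 0.55, ANKRD1 -0.56 to 0.66, AJUBA -0.13 to 0.17, in tunicamycin YAP1 -0.21 to 0.029. For slopes these were in UPF1-depleted cells VCL -0.019 to 0.040, in control VCL -0.0053 to 0.023, in emetine LATS2 -0.088 to 0.016, AXL -0.062 to 0.032. In slope differences these were in UPF1-depleted cells CCN1 -0.26 to 0.078, AMOTL2 -0.22 to 0.15, AXL -0.061 to 0.023, VCL -0.020 to 0.046, in emetine VCL -0.0083 to 0.059, in hypoxia CCN1 -0.31 to 0.021, CCN2 -0.036 to 0.13, AMOTL2 -0.18 to 0.20, ANKRD1 -0.19 to 0.23, LATS2 -0.030 to 0.087, TPM1 -0.026 to 0.0041, in tunicamycin CCN2 -0.054 to 0.18, AXL -0.014 to 0.085, TPM1 -0.022 to 0.014.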
